A study of Mus musculus with 8 samples.

Results

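Interferon-stimulated genes are genes whose transcription is switched on when a cell senses interferon. The 39 members described here were taken by gene symbol from the 31053 genes in the count tables, and all 39 were found. They were measured by droplet-based 3′ single-cell RNA sequencing (scRNA-seq) in 8 large B16F10 tumours of 300 mm3, 4 grown in Atf4wt/wt hosts and 4 in Atf4D/D hosts. B16F10 is a mouse melanoma cell line. The hosts were mice 12 weeks old; the Atf4wt/wt hosts were male for replicates 1 and 3 and female for replicates 2 and 4, and the Atf4D/D hosts were female for replicate 1 and male for the others. Per the study's methods, both groups carried a tamoxifen-inducible Cre expressed from Rosa26 and received tamoxifen, the Atf4D/D hosts carried floxed Atf4, and the deletion was therefore made in all host tissues. The injected melanoma cells came from outside the host and carried Atf4 in both groups, so a difference between groups in melanoma cells is a difference between hosts and not between melanoma genotypes. The question asked of each gene was how much of it melanoma, fibroblast and immune cells carried, and whether that amount differed with the host genotype.

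The tumours gave 41925 barcodes, of which 28411 passed the filters on genes and mitochondrial reads. Deposited totals were between 37283598 and 74942137 unique molecular identifiers (UMIs, each a counted RNA molecule) per tumour. Cells were clustered without the listed interferon genes, so that these genes had no say in the cell class. Melanoma-like cells numbered 23678, cancer-associated fibroblast (CAF)-like cells 764 and immune cells 900. A further 2828 cells in low-depth clusters without leading markers stayed unnamed, and 241 cells of a cluster with a high mitochondrial share were removed, 231 of them from Atf4wt/wt replicate 4. The CAF-like class held between 16 and 244 cells per tumour and the immune class between 35 and 221, and Atf4D/D replicate 3 was the smallest in CAF-like cells. Melanoma markers made up 13117 to 16257 UMIs per 1000000 UMIs (CPM) of the melanoma-like cells and CAF markers 18425 to 46343 CPM of the CAF-like cells. Melanoma markers were also found at 887 to 4675 CPM in CAF-like cells and at 996 to 6262 CPM in immune cells. Atf4 itself was at 255, 299, 332 and 287 CPM in the CAF-like cells of Atf4wt/wt tumours and at 148, 102, 135 and 89.7 CPM in those of Atf4D/D tumours. In immune cells it was at 222, 293, 229 and 232 CPM against 94.0, 89.4, 54.7 and 98.3 CPM. The groups were apart in both host classes and overlapped in melanoma-like cells. Any 2 tumours shared between 2 and 14 cell barcodes.

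Type I interferons (interferon-α and interferon-β) bind the IFNAR receptor, and the signal reaches DNA through a complex with STAT2 and IRF9 that reads the interferon-stimulated response element (ISRE). Interferon-γ, made by T and natural killer cells, binds the IFNGR receptor and acts at the gamma-activated site (GAS) and through IRF1. The products include proteins that block viral replication, sensors of foreign RNA, and GTPases that attack membranes around intracellular microbes, and in tumours the same programme is known for raising antigen presentation and chemokines.

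The letters of both elements stood close to the start of many of these genes. RefSeq promoters of build GRCm38.p6 were given for 32 members, with Dhx58, Gbp4, Iigp1, Parp14, Rtp4, Usp18 and Zbp1 not among them. In the 250 bases before the start, the ISRE core GAAANNGAAA (or its other strand, TTTCNNTTTC) was found in 18 of the 32 members (56.2%), against 3.46% of 27025 genes with a promoter. The GAS letters TTCNNNGAA, which read the same on both strands, were found in 11 members (34.4%) against 8.13% of all genes. By role, the ISRE core was in 4 of 4 guanylate-binding proteins, 5 of 6 immunity-related GTPases and 3 of 4 IFIT genes, but in 0 of 2 RNA sensors and 1 of 4 transcription factors. A GAS followed after 2 bases by an ISRE core was found in 5 genes in all (0.0185%), and 4 of them were members, the GTPase genes Igtp, Irgm2, Tgtp1 and Tgtp2. These stretches are shown because they are nearly alike in the 4 genes, with the 2 elements in capitals; each is on chromosome 11 and is written 5′ to 3′ in the direction of the gene. They lie at chr11:58199496-58199546 (plus strand), chr11:58214887-58214937 (plus), chr11:48992299-48992349 (minus) and chr11:49064258-49064308 (minus), and end 9, 39, 52 and 45 bases before the start.
Igtp: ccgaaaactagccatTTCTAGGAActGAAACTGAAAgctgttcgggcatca
Irgm2: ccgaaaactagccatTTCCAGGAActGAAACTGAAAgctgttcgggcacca
Tgtp1: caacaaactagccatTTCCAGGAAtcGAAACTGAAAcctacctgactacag
Tgtp2: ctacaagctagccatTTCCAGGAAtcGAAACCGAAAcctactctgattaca

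The next set is a choice of members with ISRE or GAS letters in the same stretch before the start. It is not a ranking by level or by difference in the tumours. Irf7, Oasl1 and Oasl2 had 0 ISRE cores and 0 GAS matches there and are not shown. These 3 were among the members with the widest differences between immune and melanoma-like cells. Isg15 (chr4:156200860-156200911, minus strand), Ifit1 (chr19:34640770-34640828, plus), Rsad2 (chr12:26456548-26456587, minus) and Gbp2 (chr3:142620589-142620628, plus) had ISRE letters, in capitals. Bst2 (chr8:71537572-71537623, minus) had GAS letters running into 2 overlapping ISRE cores. Isg20 (chr7:78913336-78913374, plus) and Irf1 (chr11:53769909-53769947, plus) had GAS letters and no ISRE core in this window. A match is a run of letters and says nothing by itself about binding.
Isg15: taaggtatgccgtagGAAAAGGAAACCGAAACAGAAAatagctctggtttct
Ifit1: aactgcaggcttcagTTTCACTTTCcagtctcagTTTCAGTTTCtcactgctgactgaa
Rsad2: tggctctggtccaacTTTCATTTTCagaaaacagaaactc
Gbp2: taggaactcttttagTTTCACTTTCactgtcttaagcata
Bst2: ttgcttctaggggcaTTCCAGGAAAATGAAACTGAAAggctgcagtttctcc
Isg20: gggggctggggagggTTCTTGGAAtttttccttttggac
Irf1: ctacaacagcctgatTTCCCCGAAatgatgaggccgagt

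The genes also lie in clusters in the genome. Chromosome 11 holds 10 members, among them most of the immunity-related GTPase genes, chromosome 3 holds 5 (Gbp2, Gbp3, Gbp5, Gbp7 and Ifi44), chromosome 19 holds the 4 IFIT genes and chromosome 5 holds the 3 OAS genes with Gbp4. Reads could be split between near copies or overlapping gene models in Tgtp1 and Tgtp2, in Ifit3 and Ifit3b, and in Igtp and Irgm2, so the values of these genes are uncertain one by one.

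Per UMI, immune cells carried the most interferon-stimulated transcripts, CAF-like cells came next and melanoma-like cells carried the least. This is not a ranking per cell, since median depth was 1334 UMIs in immune, 4521 in CAF-like and 10312 in melanoma-like cells. Levels are given as CPM, the UMIs of a gene per 1000000 UMIs of that class in that tumour. The summed level of the 39 members was 2308, 2153, 1813 and 2492 CPM in the immune cells of the 4 Atf4wt/wt tumours and 2576, 2033, 3799 and 1856 CPM in those of the 4 Atf4D/D tumours. In melanoma-like cells it was 481, 384, 681 and 951 CPM and 376, 626, 344 and 251 CPM, so every tumour's immune cells were above every tumour's melanoma-like cells. Within a tumour, the immune sum was between 2.62 and 11.1 times the melanoma-like sum (median 5.20) and the CAF-like sum between 1.24 and 8.19 times (median 2.27). Because melanoma-like cells were so many, they still held 74950 member UMIs in Atf4wt/wt and 50557 in Atf4D/D tumours, against 1629 and 2382 in immune cells.

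**Figure D1:**
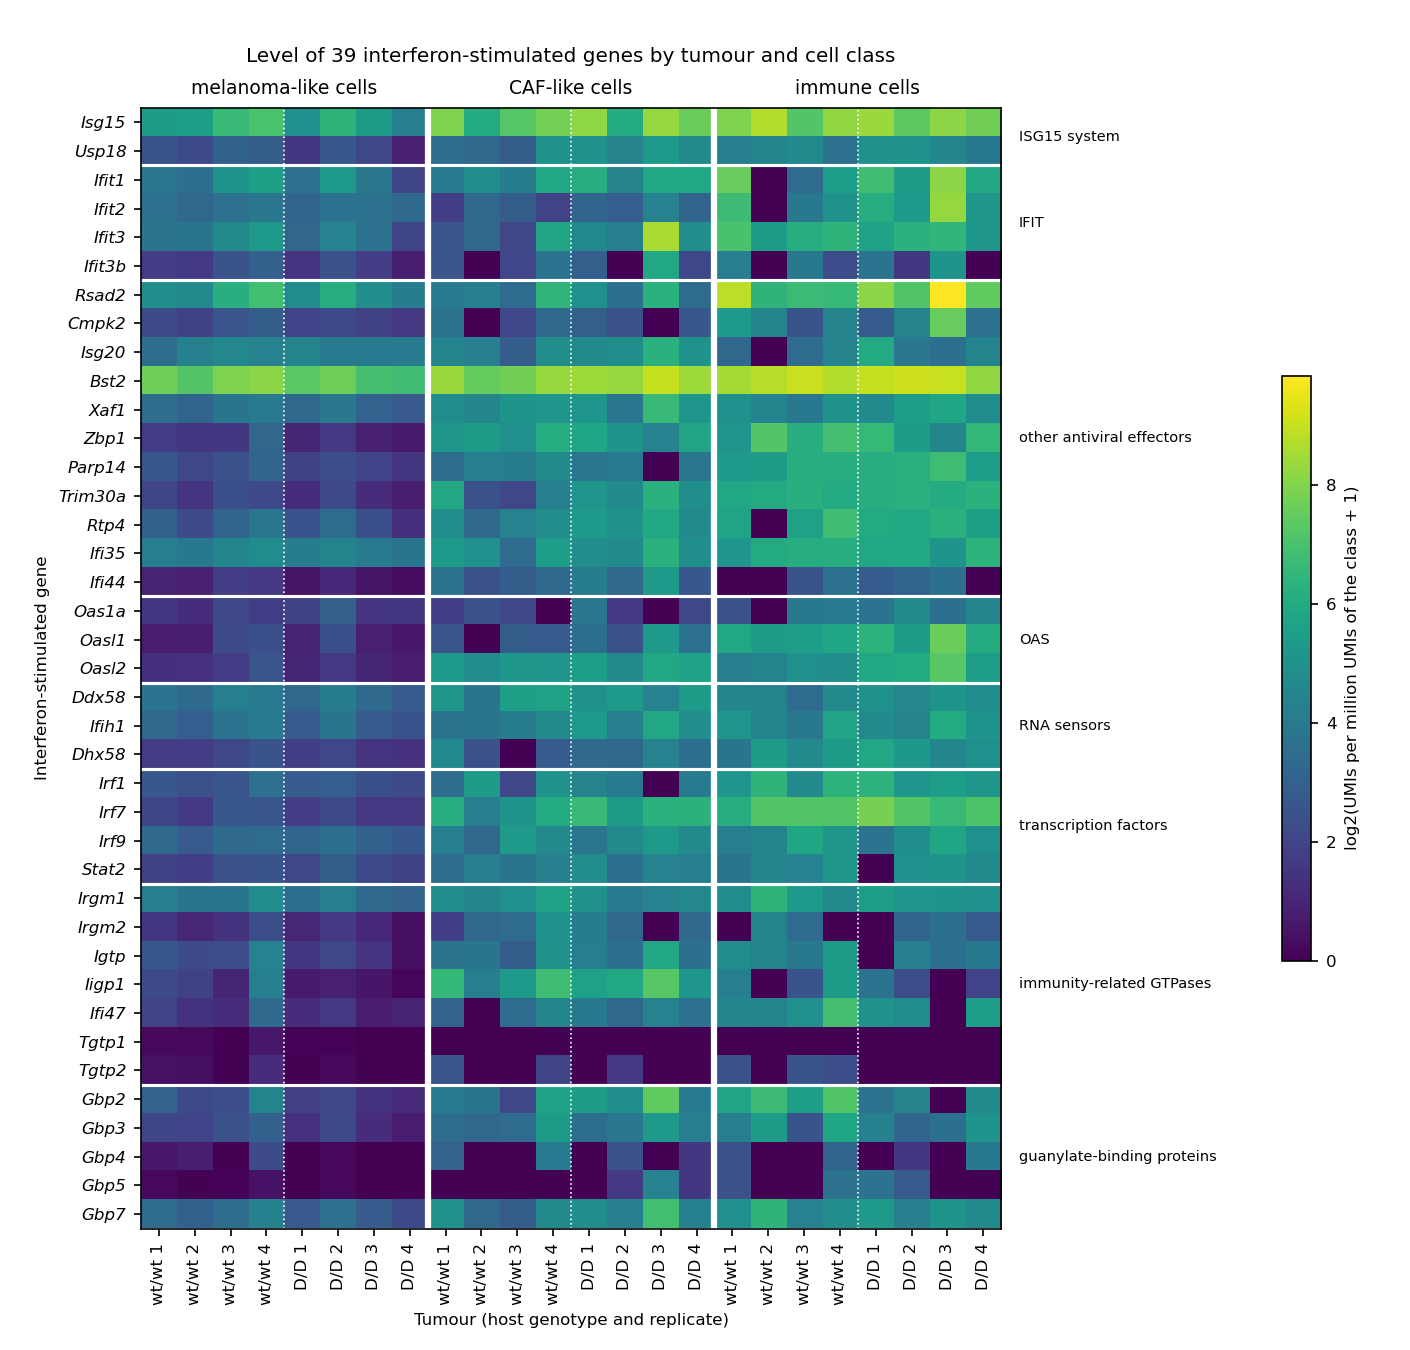
Level of each of the 39 members (rows, grouped by role) in each of the 8 tumours (columns), in melanoma-like, CAF-like and immune cells, as log2 of CPM plus 1 (colour, brighter is higher). Bst2, Isg15 and Rsad2 are the brightest rows of melanoma-like cells, and Irf7, Oasl1, Oasl2 and Zbp1 are dark there and brighter in immune cells.

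Most of the melanoma-like signal came from a few effectors. Bst2, which encodes tetherin, a membrane protein that holds budding virus at the cell surface, had the highest mean over tumours of the members in every class. It was at 201, 147, 241 and 279 CPM in the melanoma-like cells of Atf4wt/wt tumours and at 159, 200, 121 and 113 CPM in those of Atf4D/D tumours. In immune cells its values were 366, 439, 520 and 416 CPM against 495, 552, 515 and 289 CPM, and in CAF-like cells 328, 180, 212 and 314 CPM against 332, 309, 501 and 338 CPM. In immune cells Rsad2 was above Bst2 in Atf4wt/wt replicate 1 (466 CPM) and Atf4D/D replicate 3 (909 CPM). Every tumour's immune cells were above every tumour's melanoma-like cells in Bst2, while CAF-like and melanoma-like values overlapped. Isg15, a ubiquitin-like protein that is attached to other proteins, was at 41.6, 43.0, 96.8 and 131 CPM against 30.8, 83.9, 40.2 and 18.1 CPM in melanoma-like cells. It reached 239, 418, 146 and 296 CPM against 326, 160, 274 and 209 CPM in immune cells, and 240, 65.9, 150 and 216 CPM against 286, 64.5, 308 and 190 CPM in CAF-like cells. Usp18, the protease that takes ISG15 off again, was far lower, between 0.812 and 7.20 CPM in melanoma-like, 6.51 and 38.5 CPM in CAF-like and 12.0 and 32.5 CPM in immune cells.

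In melanoma-like cells, the summed levels by role, averaged over tumours, were 296 CPM for the other antiviral effectors, 64.8 for the ISG15 system, 52.0 for the IFIT genes, 27.7 for the immunity-related GTPases, 24 for the RNA sensors, 21.4 for the transcription factors, 18.8 for the guanylate-binding proteins and 6.83 for the OAS genes. The lowest members were Tgtp1, Gbp5, Tgtp2 and Gbp4, with 31, 26, 72 and 153 UMIs over all melanoma-like cells, and Tgtp1 had no UMI in CAF-like or immune cells.

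Of the 39 members, 38 passed the filter on low counts in the comparison of immune with melanoma-like cells of the same tumours. Of these, 37 were higher in immune cells (edgeR quasi-likelihood test, tumour as a block, adjusted p under 0.05), where 48.4% of all genes tested passed and 21.9% were higher. The median log2 difference over the 38 was 2.49, against -0.23 over all genes tested. The largest difference was that of Irf7, the factor that amplifies the type I response. It was at 69.7, 146, 141 and 144 CPM in immune cells of Atf4wt/wt tumours and at 226, 146, 98.5 and 140 CPM in those of Atf4D/D tumours, against 2.06 to 5.34 CPM in melanoma-like cells. No tumour overlapped, and the log2 difference was 5.43 ± 0.22 (SE, n = 8; edgeR adjusted p = 8.6e-42). Oasl1, an OAS-like protein, differed by 5.36 ± 0.34, Oasl2 by 4.80 ± 0.35, Zbp1, a sensor of Z-form nucleic acid, by 5.18 ± 0.30 and Trim30a by 4.91 ± 0.28. The other factors followed at smaller sizes, with Irf1 at 3.01, Stat2 at 2.54 and Irf9 at 1.92.

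Rsad2, Isg15, Ifit1 and Bst2, which melanoma-like cells expressed well, differed less than Irf7, Oasl1, Oasl2, Zbp1 and Trim30a. Rsad2 was still above the median of 2.49 over the tested members. Rsad2, which encodes the antiviral enzyme viperin, differed by 2.58 ± 0.25, Isg15 by 2.23 ± 0.19, Ifit1 by 2.20 ± 0.30 and Bst2 by 1.33 ± 0.13 on the log2 scale. Ddx58, the gene of the RNA sensor RIG-I, had the smallest difference among the RNA sensors. It was at 21.8, 20.9, 9.72 and 24 CPM against 31.3, 22.3, 32.8 and 26.8 CPM in immune cells and at 12.4, 9.25, 18.1 and 16.2 CPM against 8.80, 16.4, 9.19 and 5.96 CPM in melanoma-like cells. These overlapped, and the log2 difference was 1.00 ± 0.30 (adjusted p = 0.0036), or 0.74 (adjusted p = 0.050) without Atf4D/D replicate 4. Isg20, an exonuclease, was the member that did not pass, at 0.22 ± 0.30 (adjusted p = 0.56).

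In CAF-like cells, 35 of 38 tested members were higher than in melanoma-like cells and 1 was lower, where 56.4% of all genes tested passed and 29% were higher. The median log2 difference was 2.06, against -0.06 over all genes. Iigp1, an immunity-related GTPase that coats the vacuoles of intracellular parasites, led. It was at 92.8, 17.6, 39.1 and 108 CPM and at 48.7, 57.8, 154 and 35.1 CPM in CAF-like cells, and at 3.63, 2.87, 1.03 and 17.9 CPM and at 0.620, 0.810, 0.527 and 0.0937 CPM in melanoma-like cells. Only the melanoma-like value of Atf4wt/wt replicate 4 came as high as the lowest CAF-like value, and the log2 difference was 5.24 ± 0.44 (adjusted p = 7.2e-12). Immune cells had 0 to 40.0 CPM of Iigp1, overlapping the 17.6 to 154 CPM of CAF-like cells, and these classes were not tested against each other. Zbp1 differed from melanoma-like cells by 4.59 ± 0.33, Oasl2 by 4.58 ± 0.34 and Irf7 by 4.34 ± 0.28, each of which was also higher in immune cells.

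Rsad2 had the opposite sign. It was at 29.0, 25, 70.1 and 114 CPM against 25.7, 68.0, 27.7 and 16.3 CPM in melanoma-like cells and at 15.5, 17.6, 9.77 and 86.3 CPM against 29.8, 11.1, 77.1 and 10.1 CPM in CAF-like cells. The ranges overlapped, and the paired difference was -0.67 ± 0.23 (adjusted p = 0.014). With DESeq2 this call was lost, and 0 members were lower in CAF-like cells past the threshold. The IFIT gene Ifit2 (-0.46 ± 0.29, adjusted p = 0.18) and Oas1a (0.82 ± 0.46, adjusted p = 0.13) were the members that did not pass. Ifit1 passed at 1.56 ± 0.38, but not with DESeq2, where it was at 1.12 with an adjusted p of 0.092.

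Shares of cells with a UMI were compared after every cell was thinned to 1000 UMIs, which left 23676 melanoma-like, 745 CAF-like and 621 immune cells (2, 19 and 279 were too shallow). The unthinned medians were 10312, 4521 and 1334 UMIs per cell. Irf7 was seen in 0.338% of melanoma-like, 6.85% of CAF-like and 9.50% of immune cells, and Isg15 in 4.38%, 14.4% and 13.4%. Iigp1 was seen in 0.253%, 5.91% and 0.805%, and Rsad2 in 3.14%, 2.01% and 8.86%. Pooled over tumours, immune cells thus had the highest share for Irf7 and Rsad2 but not for Isg15 and Iigp1, and CAF-like cells were below melanoma-like cells for Rsad2. Tumours overlapped, with Isg15 in 3.92% to 20.5% of CAF-like and 8% to 21.1% of immune cells. Rsad2 was in 0% to 12.5% of CAF-like and 1.34% to 6.66% of melanoma-like cells. The limit of 1000 UMIs lay above the median depth of T/NK-like cells (746.5 UMIs) and of immune cells led by Inhba and Arg1 (931 UMIs). As a measure of free RNA, the macrophage gene C1qb was in 53.9% of immune but 0.0591% of melanoma-like cells, and the fibroblast gene Col1a1 in 88.9% of CAF-like but 0.363% of melanoma-like and 0.483% of immune cells. The shares of Irf7 and Iigp1 in melanoma-like cells were no higher than that of Col1a1, so these shares by themselves are not read as expression. Levels were set beside the same genes. The level of C1qb in melanoma-like cells was 0.0223% of its level in immune cells, whereas Irf7 was at 2.24% and the members were at 18% in the median (2.04% to 87.6%). The level of Col1a1 there was 0.0433% of its CAF-like level, against 5.84% for Iigp1. The part of free RNA in the levels of any class, including melanoma RNA in CAF-like and immune cells, was not tested.

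Among immune cells, a subcluster led by Inhba and Arg1 had the highest pooled level, a sum of 4840 CPM over its 91 cells, 19 from Atf4wt/wt and 72 from Atf4D/D tumours. Rsad2 was at 1100 CPM there and Isg15 at 867 CPM, while Iigp1 had no UMI. A subcluster led by the monocyte genes Ly6c2 and Ccr2 was at 3038 CPM (324 cells). By tumour, the first ran from 373 to 11972 CPM and was above the second in 4 of 8 tumours. A macrophage (TAM)-like subcluster led by Vcam1 and Gas6 was at 2403 CPM (265 cells) and another, led by the mitotic genes Aspm and Spc25, at 1041 CPM (37 cells), while T/NK-like cells were at 1115 CPM (82 cells). The pooled values are sums over cells of all tumours and carry no test. A few cells held much of the antiviral transcripts in some tumours. In Atf4D/D replicate 3, 83 Rsad2 UMIs came from 5 of its 35 immune cells, 47 of them from 1 cell, and in Atf4wt/wt replicate 1, 107 came from 13 cells.

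Within the melanoma-like class, the transcripts were spread unevenly over cells, to a degree that differed by member. After thinning each cell to 5000 UMIs, Bst2 was in 47.5% of melanoma-like cells and Ifit1 in 3.26%. Between 17.1% and 39.3% of these cells per tumour had no member UMI at all. Cells with 5 or more member UMIs made up 11.4%, 7.05%, 17.4% and 22.4% in the Atf4wt/wt tumours and 7.76%, 15.8%, 6.65% and 3.55% in the Atf4D/D tumours. The means were 14.6% ± 6.74 and 8.43% ± 5.21 (SD, n = 4 each), and the groups overlapped. Atf4wt/wt replicate 4 was the highest and Atf4D/D replicate 4 the lowest.

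Members were found together in the same cells. In cells with an Ifit1 UMI, 68.2% to 84.9% per tumour also had Isg15, against 4.57% to 21.0% of cells without Ifit1. Rsad2 was in 50% to 69.8% against 5.69% to 13.7%, and Ifit3 in 40.9% to 62.3% against 0.837% to 3.79%. The interferon-γ-responsive GTPases were also found together, with Gbp2 in 16.7% to 47.5% of cells with Igtp against 0.592% to 2.70% of those without. Cells with Igtp numbered 336, with as few as 3 in a tumour, and cells with Ifit1 725, with as few as 22. Isg20 differed less, in 8.27% to 20.8% of cells with Ifit1 against 4.58% to 9.31%, and so did Bst2, in 53.3% to 75.2% of cells with Isg15 against 35.5% to 59.3%, though both were higher in 8 of 8 tumours. The variance of counts over cells was 9.77 times the mean for Rsad2, the highest of the members. It was 7.38 times for Ifit1, 4.80 for Ifit3, 4.78 for Isg15 and 4.67 for Iigp1, while Bst2 was at 2.30 and Isg20 at 1.37. This ratio also depends on the level of a gene, so it does not rank the members by unevenness.

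When the interferon genes were allowed into the clustering, 877 cells formed a cluster of their own. It was led by Ifit3, Ifit1, Ifit3b, Igtp, Rsad2, Usp18, Gbp2, Cxcl10, Isg15 and Gbp7. These genes made the cluster, so their levels in it are a description with no test. It was 3.46%, 2.60%, 4.80% and 9.06% of melanoma-like cells in Atf4wt/wt tumours and 2.10%, 5.14%, 2.33% and 0.940% in Atf4D/D tumours, and it held between 12.1% and 53.3% of all member UMIs of the melanoma-like cells of a tumour. Atf4wt/wt replicate 4 had the largest and Atf4D/D replicate 4 the smallest share, and the other 6 tumours overlapped between hosts. Ifit1 was at 440 CPM inside and 4.27 CPM outside, Iigp1 at 81.3 and 0.198 CPM, Gbp2 at 105 and 1.74 CPM, Igtp at 94.3 and 1.31 CPM, and Isg15 at 754 and 30.4 CPM. Bst2 differed less, 719 against 158 CPM, as did Irf9 (27.3 against 7.51 CPM) and Isg20 (34.3 against 15.8 CPM). The pigment genes Pmel (3240 and 3037 CPM), Mlana (1975 and 1849 CPM) and Dct (5872 and 5642 CPM) were near the level of other melanoma-like cells, and the summed immune markers were at 54.3 CPM inside, 21.2 CPM outside and 9010 CPM in immune cells. Median depth was 9979 UMIs inside and 10316 outside. Genes of antigen presentation, which are no members, were also higher inside, B2m at 697 against 206 CPM and H2-K1 at 277 against 94.2 CPM, as was Cd274, the gene of PD-L1, at 14.0 against 3.02 CPM.

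**Figure D2:**
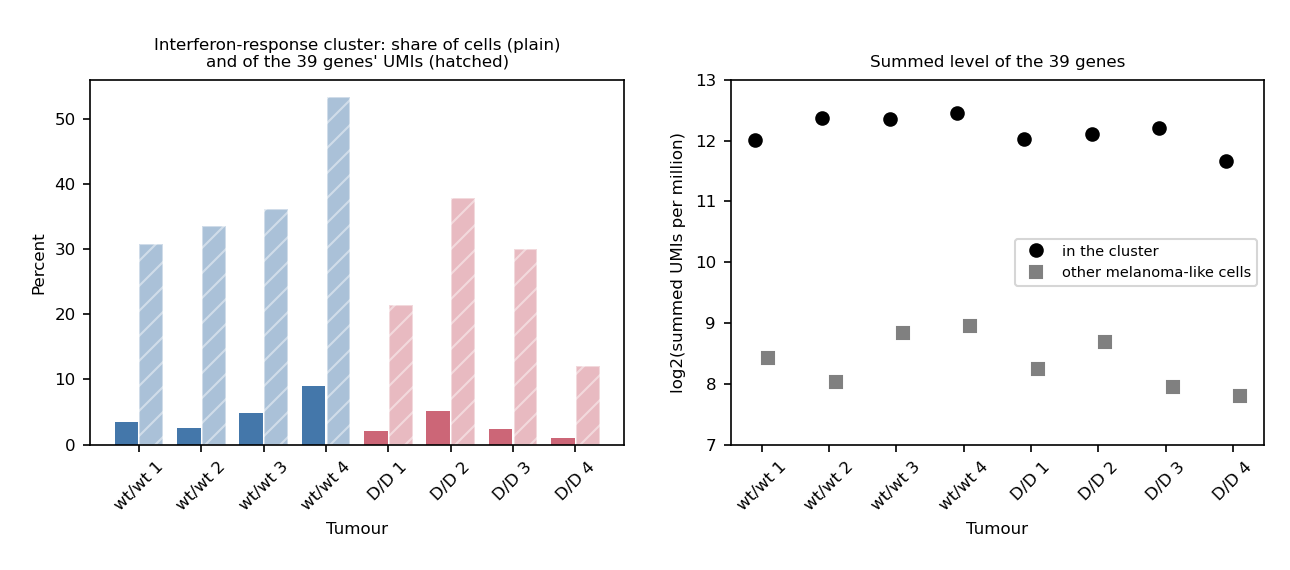
Left, share of melanoma-like cells (plain bars) and of their member UMIs (hatched bars) that lie in the cluster formed when interferon genes enter the clustering, in percent, per tumour (blue Atf4wt/wt, red Atf4D/D). Right, summed level of the 39 members as log2 of CPM inside the cluster (circles) and in other melanoma-like cells (squares); the cell shares run from 0.940% to 9.06%, and every circle is above every square.

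In the clustering without interferon genes, 859 of these cells fell into all 10 melanoma-like clusters, with at most 150 of them in 1 cluster. The summed level still differed between those clusters. Pooled over tumours, it was highest in a cluster led by Cth, Azgp1 and Tenm4 (867 CPM, 1188 cells) and in one with Tmod1 and St3gal1 among its leading genes (859 CPM, 958 cells), and lowest in a cluster led by the mitotic genes Nusap1, Prc1 and Cenpf (348 CPM, 1412 cells). The Cth cluster had a median mitochondrial share of 1.29%, below that of every other melanoma-like cluster. Within tumours, the highest sum was in the Tmod1 cluster in 5 and in the Cth cluster in 3. Isg20 had its own pattern, at 63.9 CPM in a cluster led by Akr1b7 and Grb14, 37.3 CPM in one with the hypoxia genes Car9 and Bnip3, and 3.11 CPM in one led by Cenpa and Ccnb2, a 20.5-fold range. These are pooled levels with no test.

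**Figure D3:**
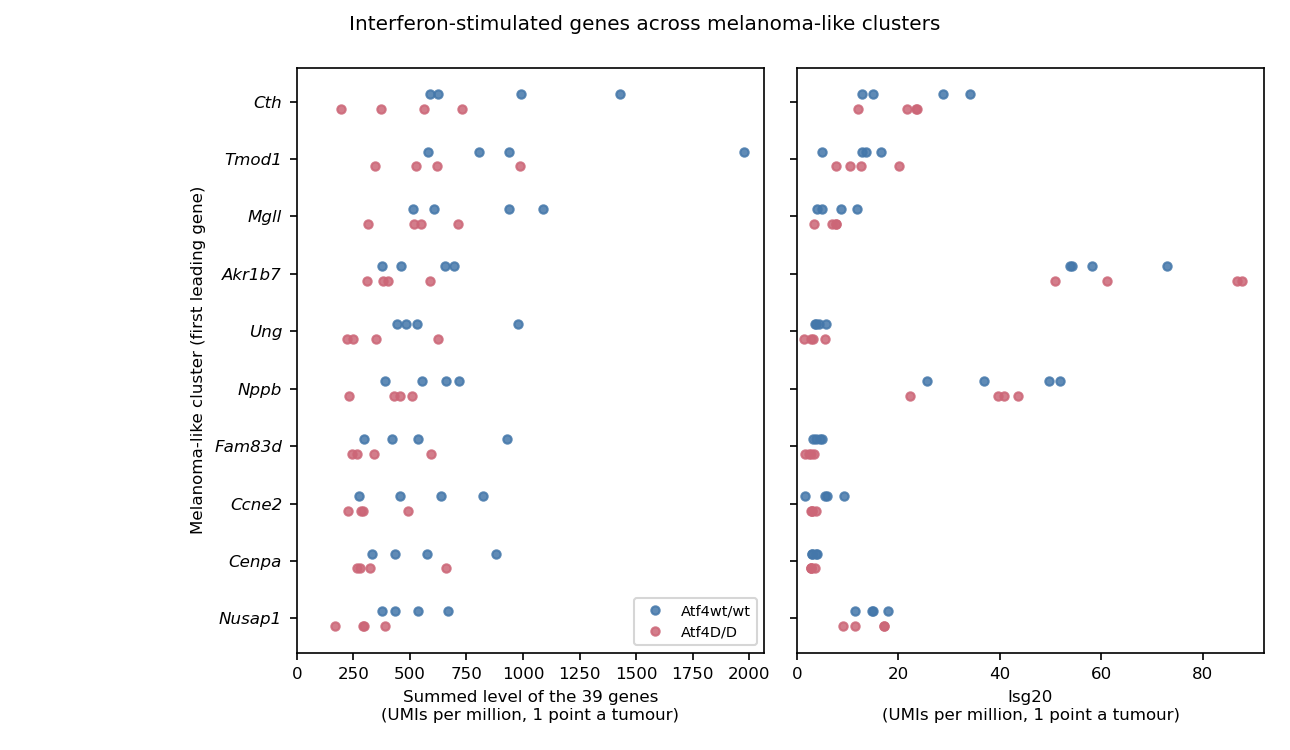
Summed level of the 39 members (left, CPM) and level of Isg20 (right, CPM) in the 10 melanoma-like clusters obtained without interferon genes, each named by its first leading gene; each point is 1 tumour, blue for Atf4wt/wt and red for Atf4D/D. The sums are widest apart in the Cth and Tmod1 clusters, while Isg20 is highest in the Akr1b7 cluster in both hosts.

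Host genotype was compared in melanoma-like cells first. No member passed the test over all genes. Of the 35 members that passed the count filter, 33 had a lower level in Atf4D/D than in Atf4wt/wt hosts and 2 a higher one, with a median log2 difference of -0.72 against -0.005 over all 12554 genes tested. Among all genes 4 passed (0.0319%). At an unadjusted p under 0.05, 16 of the 35 members stood out, all lower in Atf4D/D hosts, where 11.3% of all genes had such a p and 5.39% were lower at it. DESeq2 called 1 member, Iigp1, where it called 0.956% of genes. The summed level averaged 624 ± 250 CPM in Atf4wt/wt and 399 ± 160 CPM in Atf4D/D tumours (SD, n = 4 each) and the groups overlapped, with Atf4wt/wt replicate 4 the highest at 951 CPM and Atf4D/D replicate 2 the highest of its group at 626 CPM.

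Among the members that passed the count filter, the GTPase genes Iigp1 and Igtp and the guanylate-binding protein gene Gbp2 had the widest differences. Iigp1, with the values given above, was apart between the groups, and its log2 difference was -3.65 ± 0.82 (SE; unadjusted p = 0.00091, edgeR adjusted p = 0.20). Igtp was at 5.35, 3.81, 4.05 and 19.2 CPM against 2.04, 3.34, 1.76 and 0.281 CPM, at -2.16 ± 0.62 (adjusted p = 0.28). Gbp2 was at 7.83, 3.61, 4.14 and 20.6 CPM against 2.63, 3.34, 1.71 and 1.25 CPM, at -2.06 ± 0.52 (adjusted p = 0.22). In these 3 genes every Atf4wt/wt tumour was above every Atf4D/D tumour, which held for 1.26% of the genes tested. The turned order held for 0 members and for 5.42% of the genes tested. Atf4wt/wt replicate 4 was well above its group in each of them, and the edges of the groups were close, 3.61 and 3.34 CPM in Gbp2. With DESeq2, Iigp1 passed at -3.66 (adjusted p = 0.025). With no filter on low counts, which let all 39 members into the test, Iigp1 (adjusted p = 0.014), Gbp2 (-2.06 ± 0.40, adjusted p = 0.028) and Gbp4 (-4.67 ± 0.98, adjusted p = 0.0496) passed, among 46 genes (0.226%). Gbp4 was at 0.612, 0.781, 0 and 3.83 CPM against 0.0365, 0.169, 0 and 0 CPM, from 147 and 6 UMIs, and these groups overlapped.

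**Figure D4:**
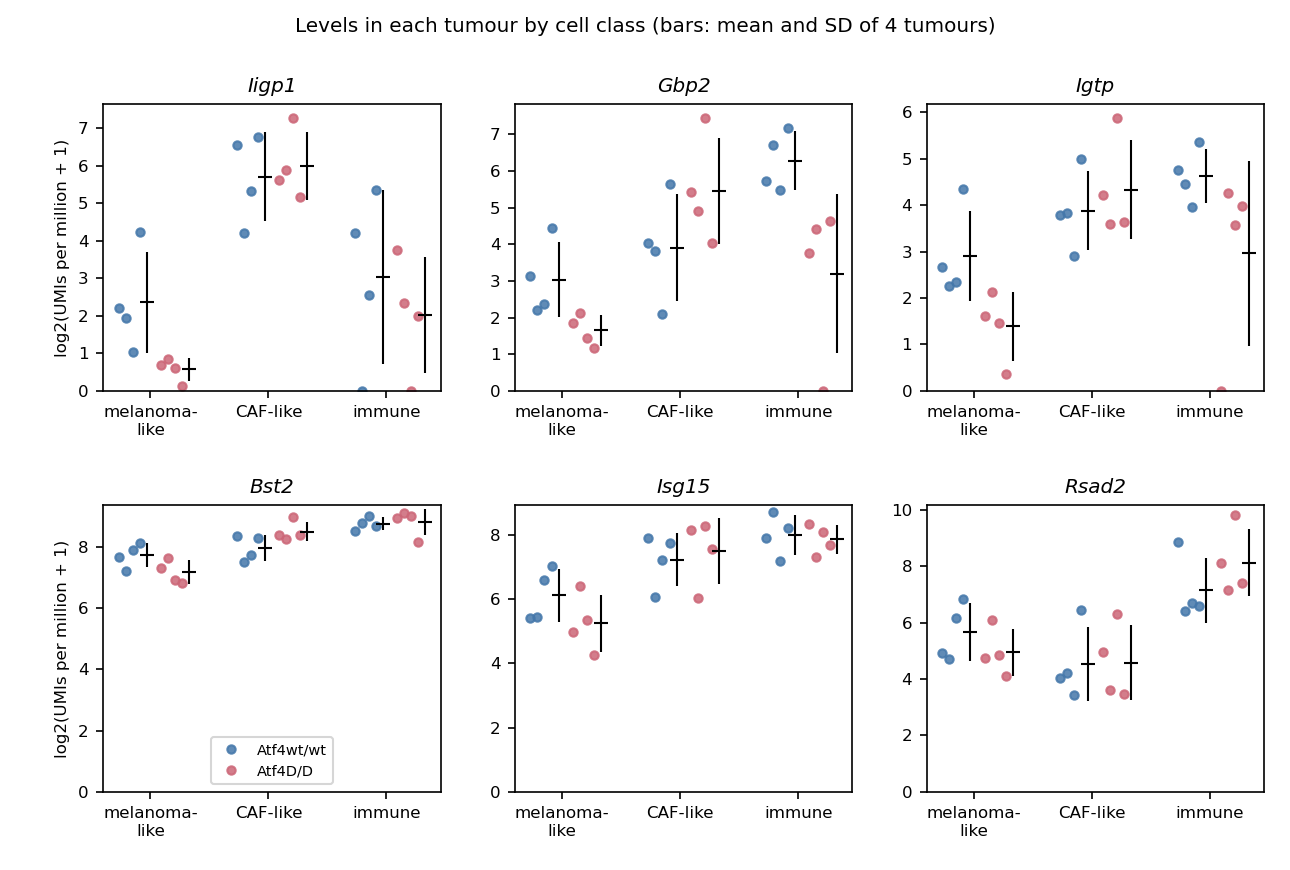
Level of Iigp1, Gbp2, Igtp, Bst2, Isg15 and Rsad2 in each tumour as log2 of CPM plus 1, by cell class and host (blue Atf4wt/wt, red Atf4D/D); points are tumours and bars are the mean and SD of 4 tumours on that scale. In melanoma-like cells the Iigp1, Gbp2 and Igtp points of both host groups do not overlap, and those of Bst2, Isg15 and Rsad2 do.

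Members of the other roles differed less than Iigp1, Igtp and Gbp2, but not less than every GTPase and guanylate-binding protein. With DESeq2, Zbp1 was at -1.77 (adjusted p = 0.21) and Ifi44 at -1.56 (adjusted p = 0.063). In the same fit Irgm1 was at -0.66 and Gbp7 at -0.82. Of the IFIT genes, Ifit1 was at 13.7, 11, 33.0 and 46.4 CPM against 11.6, 37.6, 14.0 and 3.12 CPM and Ifit3 at 12.8, 13, 24.2 and 38.7 CPM against 8.36, 19.3, 11.7 and 3.12 CPM. Both overlapped, and Atf4D/D replicate 2 was the highest of its group in each. The log2 difference was -0.89 ± 0.45 for Isg15 (adjusted p = 0.49), -0.59 ± 0.21 for Bst2 (adjusted p = 0.36), -0.96 for Usp18 and -1.13 for Oasl2, and these groups of values overlapped too. Among the factors, Irf7 was at 3.12, 2.15, 5.34 and 5.14 CPM against 2.41, 3.81, 2.11 and 2.06 CPM, and Irf9 at 9.20, 6.06, 9.64 and 9.71 CPM against 7.88, 11, 7.23 and 5.56 CPM. Irf1, which answers interferon-γ, was at 5.30, 4.40, 5.25 and 12.2 CPM against 6.28, 6.62, 4.27 and 3.75 CPM. Stat2 (0.11) and Oas1a (0.50) were the members with a positive log2 difference. An unadjusted p under 0.05, found for 11.3% of all genes, was reached by 4 of 5 tested GTPases and 3 of 3 tested guanylate-binding proteins. It was reached by 0 of 4 factors and 0 of 3 RNA sensors. Over all roles, 16 of 35 tested members reached it, and most of these were in the roles not counted here. Those roles are the ISG15 system, the IFIT genes, the OAS genes and the other antiviral effectors. These counts depended on the filter: with none on low counts, 29 of 39 members reached it, among them Irf7 and all 3 RNA sensors, where 8.47% of all genes did. The roles were not tested against each other.

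Single tumours weighed on these counts. Without Atf4wt/wt replicate 4 the median was -0.45 and 8 of 35 members had an unadjusted p under 0.05; without Atf4wt/wt replicate 2 it was 24 of 35, and without Atf4D/D replicate 2 it was 30 of 36 with a median of -1.25. No member passed the adjusted threshold in any of the 8 fits that left a tumour out. Immune markers in melanoma-like cells, a sign of immune RNA in that class, were at 20.9 to 38.5 CPM in Atf4wt/wt and 12.5 to 28.8 CPM in Atf4D/D tumours, the highest in Atf4wt/wt replicate 4, and their part in the result was not tested.

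**Figure D5:**
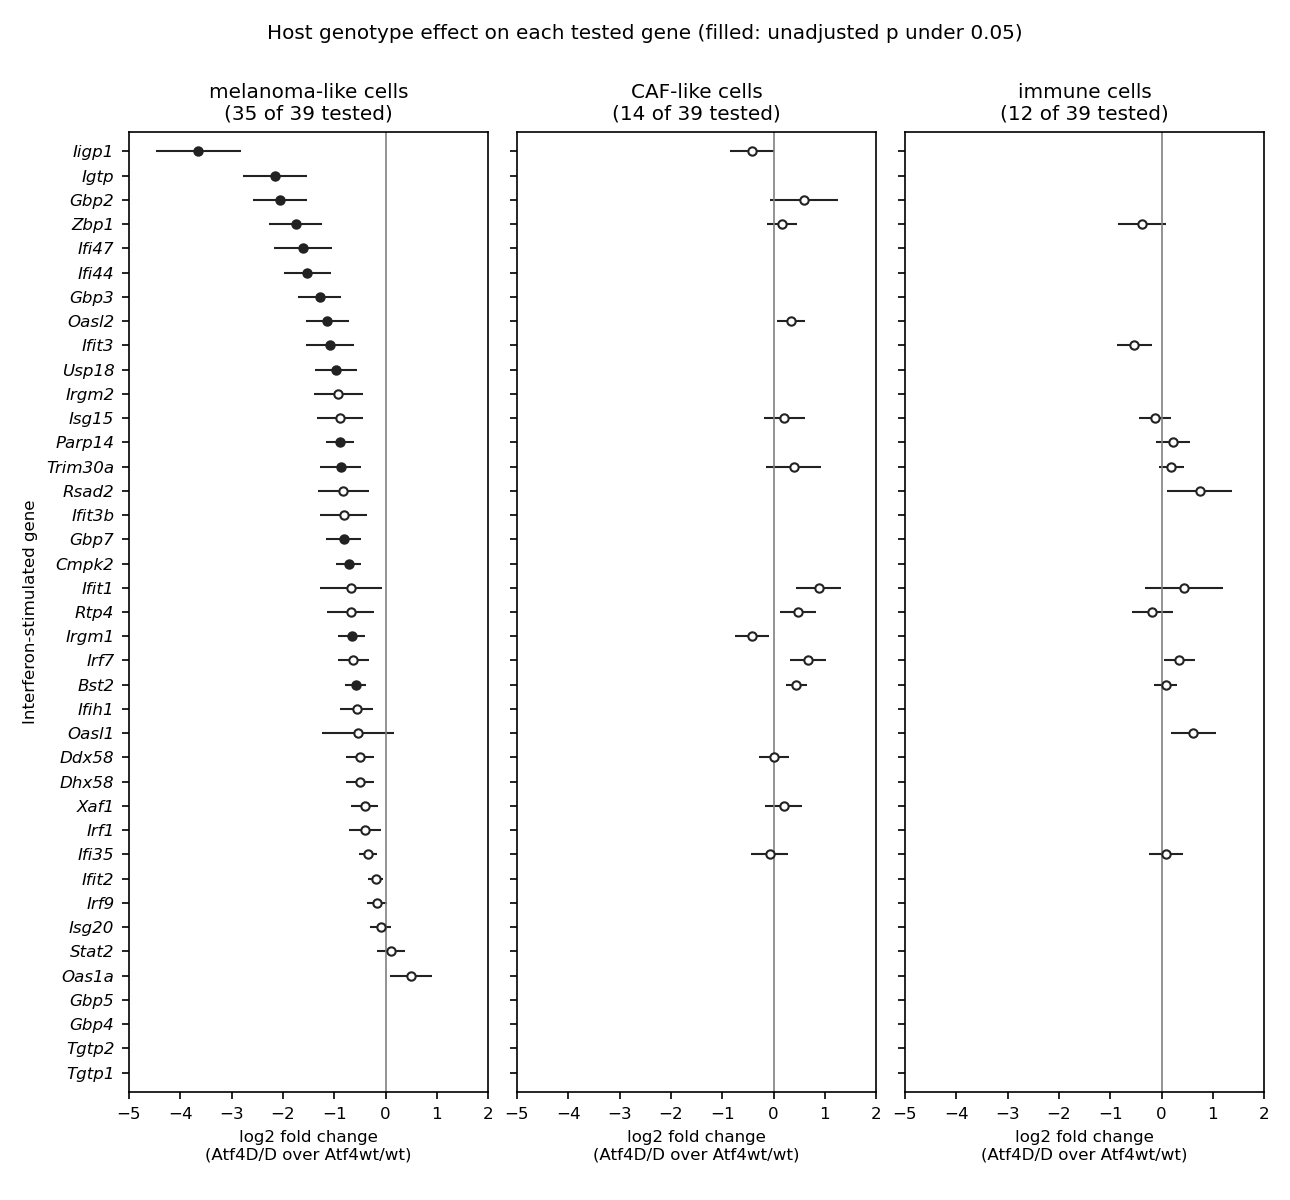
Log2 fold change of Atf4D/D over Atf4wt/wt hosts for each tested member in melanoma-like, CAF-like and immune cells; points are edgeR estimates, bars 1 SE, and filled points have an unadjusted p under 0.05. In melanoma-like cells 33 of 35 members lie below 0, and in CAF-like cells 11 of 14 lie above it.

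In CAF-like cells the values leaned the other way, and no member passed. Of 14 tested members 11 had a higher and 3 a lower level in Atf4D/D hosts, with a median of 0.27, and 0 had an unadjusted p under 0.05, where 5.98% of genes did; edgeR called 0 of 4952 genes (0%). Ifit1 was at 15.5, 26.4, 16.3 and 58.6 CPM against 69.1, 20.02, 57.8 and 58.0 CPM, a difference of 0.88 ± 0.44 (adjusted p = 0.83). Irf7 was at 69.6, 17.6, 32.6 and 64.7 CPM against 102, 40.0, 77.1 and 78.2 CPM, at 0.67 ± 0.35 (adjusted p = 0.86). Bst2 differed by 0.44 ± 0.21 (adjusted p = 0.82). All 3 overlapped between hosts. The summed level was 1307, 699, 843 and 1668 CPM against 1560, 992, 2814 and 1308 CPM, with means of 1129 ± 443 and 1669 ± 798 CPM. The value of 2814 CPM came from the 16 cells of Atf4D/D replicate 3, where Ifit3 was at 385 CPM from 20 UMIs in 2 cells, and where endothelial markers were at 2756 CPM.

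In immune cells no member passed either, of 12 tested. Sums were close, 2192 ± 288 CPM in Atf4wt/wt and 2566 ± 877 CPM in Atf4D/D tumours. Of the members with the smallest unadjusted p, Ifit3 was at 126, 41.8, 68.1 and 84.0 CPM against 50.1, 77.2, 87.6 and 35.8 CPM, a difference of -0.53 ± 0.34 (adjusted p = 0.59). Oasl1 was at 56.6, 41.8, 43.8 and 56.0 CPM against 81.5, 42.6, 197 and 65.5 CPM, at 0.62 ± 0.44 (adjusted p = 0.64). Rsad2 was at 466, 83.6, 102 and 96.0 CPM against 276, 142, 909 and 170 CPM, at 0.74 ± 0.64 (adjusted p = 0.73), and at -0.059 without Atf4D/D replicate 3. Each of these overlapped between hosts. edgeR called 0 of 3256 genes (0%), with 341 (10.5%) at an unadjusted p under 0.05, and DESeq2 called 1 gene.

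Of the 38 members with a UMI in immune cells, 2 were apart between hosts, 1 in each direction, both below the count filter. Among genes past the filter, 3.72% had every Atf4wt/wt tumour on top and 2.36% every Atf4D/D tumour, with 0 of 12 members. Beside these shares the 2 genes are not read as a result about the members. Gbp2 was at 52.3, 105, 43.8 and 144 CPM in Atf4wt/wt and at 12.5, 20.3, 0 and 23.8 CPM in Atf4D/D tumours, from 62 and 20 UMIs. Of all genes with a UMI, 1.41% had every Atf4wt/wt tumour above every Atf4D/D tumour. With no filter on low counts Gbp2 passed, at -2.13 ± 0.43 (edgeR adjusted p = 0.00042), among 61 genes (0.438%). Oasl2 was the opposite, at 17.4, 20.9, 29.2 and 28.0 CPM against 56.4, 63.0, 153 and 44.7 CPM, from 18 and 69 UMIs. In the same fit it was at 1.49 ± 0.44 (adjusted p = 0.097), and 1.5% of genes with a UMI had every Atf4D/D tumour on top. The makeup of the class moved with the host too: the T/NK-like subcluster held 56 cells from Atf4wt/wt and 26 from Atf4D/D tumours, the Inhba and Arg1 subcluster 19 and 72, and B-cell and plasma-cell markers reached 12563 CPM in Atf4wt/wt replicate 3. Their part in these differences was not tested.

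Over all cells kept, no member passed and 9 of 35 had an unadjusted p under 0.05, all lower in Atf4D/D hosts (10.4% of genes had that p in either direction, and edgeR called 0 of 13117, or 0%). Igtp differed by -1.93 ± 0.58 and Iigp1 by -2.24 ± 0.71 (both adjusted p = 0.39). In such sums over all cells, fewer cells of a class and less RNA per cell cannot be told apart.

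Whether the genotype difference itself differed between classes was tested with the tumour as a block, a test chosen after the data were seen. The difference in CAF-like cells was above that in melanoma-like cells for 7 of 38 members past an adjusted p of 0.05. Over all genes 0.283% passed and 0.157% in that direction. All 38 members were on that side, where 48.8% of all genes were on the other. Members were found together in the same cells, so this count carries no test. In CAF-like cells alone 14 members passed the count filter, and Ifit3, Igtp and Usp18 were not among them. Iigp1 had 3.23 ± 0.49 (adjusted p = 0.00011), Gbp2 2.97 ± 0.49 (adjusted p = 0.0003) and Ifit3 2.78 ± 0.53 (adjusted p = 0.0021). Ifit1 (2.25 ± 0.49), Igtp (2.57 ± 0.58), Usp18 (2.37 ± 0.55) and Bst2 (1.01 ± 0.20) also passed. These are differences of log2 differences, so Iigp1 was 3.65 lower in melanoma-like cells of Atf4D/D hosts on the log2 scale while its CAF-like values overlapped. The count was 3 without Atf4D/D replicate 4, 12 without Atf4wt/wt replicate 1 and 17 without Atf4D/D replicate 2, and DESeq2 called 1 member, Iigp1 (adjusted p = 0.017), where it called 3 of all genes (0.0224%). For immune against melanoma-like cells, Rsad2 (1.61 ± 0.30, adjusted p = 0.00043) and Oasl2 (2.78 ± 0.59, adjusted p = 0.0045) passed, where 0.139% of genes passed and 0.108% in that direction. Set over the melanoma-like value of the same tumour, Rsad2 in immune cells overlapped between hosts, as did Ifit1 in CAF-like cells. Leaving out 1 tumour at a time, Rsad2 ran from 0.86 to 2.98 here, and Ifit1 in CAF-like cells from 1.23 to 3.16. The SEs of these fits are therefore not read as the spread between tumours. For immune cells the count of members did not hold throughout. It was 0 without Atf4wt/wt replicate 4 or without Atf4D/D replicate 3, and 1 without Atf4wt/wt replicate 3. It was 5 without Atf4wt/wt replicate 1, 6 without Atf4D/D replicate 2 and 0 with DESeq2.

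The rest of the pathway was read from a list of other interferon genes. Against melanoma-like cells, 43 of 50 tested genes passed in immune cells, 42 of them higher, where 48.4% of all genes passed and 21.9% were higher. The receptors were among these, Ifngr1 at 2.92, Ifnar2 at 1.71 and Ifnar1 at 1.58 on the log2 scale, as was Irf8, a factor of myeloid cells, at 8.40. Ifi27 was lower in immune cells, at -0.73. In CAF-like cells 33 of 47 passed, where 56.4% of all genes did, with Cxcl9, a chemokine for T cells that answers interferon-γ, at 8.11, the kinase gene Jak1 at 1.90 and Ifngr1 at 1.90. Herc6 (-1.35) and Il10rb (-0.71) were lower there. Between hosts no gene of this list passed in any class, of 42, 23 and 25 tested in melanoma-like, CAF-like and immune cells. In melanoma-like cells 8 of the 42 had an unadjusted p under 0.05, all lower in Atf4D/D hosts (11.3% of all genes had such a p and 5.39% were lower at it), among them the immunoproteasome genes Psmb9 (-1.70) and Psmb8 (-1.67), the peptide transporter gene Tap1 (-1.15) and Ifi203 (-1.81 ± 0.48).

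Transcripts of the interferons themselves were rare. Of 19 ligand genes in the tables, Ifng had 20 UMIs in immune cells, in 3 T/NK-like cells of 2 tumours, 19 of them in Atf4wt/wt replicate 4 (76.0 CPM) and 1 in Atf4D/D replicate 4 (2.98 CPM). Ifnb1 had 4 UMIs in 3 immune cells, from Atf4D/D replicates 1 and 4. CAF-like cells had none, and 7 ligand genes had 1 UMI each in melanoma-like cells. Atf4wt/wt replicate 4, with most of the Ifng UMIs, was also the tumour with the highest Iigp1, Igtp, Gbp2 and Irf1 in melanoma-like cells, and whether these are linked was not tested. Cxcl10, a chemokine induced by both interferon types, was at 49.5, 43.8, 83.1 and 155 CPM in melanoma-like cells of Atf4wt/wt tumours and at 44.8, 94.6, 49.0 and 34.5 CPM in those of Atf4D/D tumours, with overlap and with the same tumours at the top as for Isg15 and Ifit1.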

How the data were processed

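Single-cell RNA of 8 tumours was profiled by droplet 3′ sequencing. The authors' deposited files held raw UMI counts per gene and cell barcode, made with Cell Ranger 3.1.0 on GRCm38; the submitters' processing notes also name Seurat 3.2.1. Reads were counted near the 3′ end, so CPM was not scaled by gene length. Cells with 200 to 5000 genes and at most 7.5% mitochondrial UMIs were kept, and genes in at least 3 cells. Clustering used Seurat 5.3.0, R 4.3.3 and Matrix 1.6.5 with 2000 variable genes, less the listed interferon genes, and 20 principal components, aiming at 16 clusters. Classes were named from marker lists. No doublet caller was run, and 84 CAF-like cells carrying melanoma markers and 67 carrying endothelial markers were left out in alternatives.

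Counts were summed per tumour and class and tested with edgeR 4.0.16 (quasi-likelihood, TMM, filterByExpr, Benjamini-Hochberg over all genes, threshold 0.05, two-sided), DESeq2 1.42.0 being an alternative. SE is the log2 difference over the root of the F statistic. UMIs per tumour were 24177169 to 49010869 in melanoma-like, 51885 to 1483450 in CAF-like and 47840 to 492417 in immune cells. The labels call the tumours of a group biological replicates, and no 2 of them agreed within counting noise (chi-square per degree of freedom 10.9 to 42.6). Per-tumour values were named for representatives of each role, for the 3 members with the smallest p in each genotype comparison and for the 3 with the highest mean per class. The members, lists and tests were chosen with earlier results of these data known. The edgeR step was tested on simulated counts. Some genes are not reported here.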

Additional observations from a re-analysis of the deposited data

Results flagged for a closer look

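In 15 of 104 groups of 4 tumours, the highest or lowest tumour stood far from the nearest of the others for its group's range. The cut used gives about 1 in 20 for independent, normally distributed values. These groups share tumours and some rest on few UMIs, so their count is not a test against that rate. In melanoma-like cells these were Atf4wt/wt replicate 4 for Igtp (19.2 CPM), Iigp1 (17.9 CPM) and Irf1 (12.2 CPM), Atf4wt/wt replicate 2 as the lowest for Irf9 (6.06 CPM), and Atf4D/D replicate 2 for Oasl1 (4.29 CPM). In CAF-like cells, Atf4D/D replicate 3, with 16 cells, was far above its group for Bst2 (501 CPM), Gbp2 (173 CPM), Ifit3 (385 CPM) and Igtp (57.8 CPM), and Atf4wt/wt replicate 4 for Ifit3 (52.4 CPM), Rsad2 (86.3 CPM) and Usp18 (30.8 CPM). In immune cells, Atf4wt/wt replicate 1 was the lowest for Irf7 (69.7 CPM) and the highest for Rsad2 (466 CPM), and Atf4D/D replicate 3 was the highest for Oasl2 (153 CPM).

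The host genotype difference was higher in CAF-like than in melanoma-like cells past the threshold, on the log2 scale, for Iigp1 (3.23), Gbp2 (2.97), Ifit3 (2.78), Igtp (2.57), Usp18 (2.37), Ifit1 (2.25) and Bst2 (1.01). It was higher in immune than in melanoma-like cells for Rsad2 (1.61) and Oasl2 (2.78).

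Members were also found in cells that entered no comparison by class. Their summed level was 939 CPM in the removed cells with a high mitochondrial share, nearly all from Atf4wt/wt replicate 4, and 624 CPM in the unnamed cells.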

How the results depend on the processing

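Of the 236 recomputed counts and shares that answer a comparison, 182 kept within 1.5 times of the reported value (for shares, within 1 SD) and 54 moved. Of the 662 recomputed values of single genes, 634 kept their direction and their side of the threshold, 22 no longer passed, 5 newly passed and 1 turned, Rsad2 in immune cells, which ran from -0.059 without Atf4D/D replicate 3 to 1.80 without Atf4wt/wt replicate 1. The causes were not tested. With DESeq2, the genotype comparison called 1 member and 120 genes in melanoma-like cells, 3 genes in CAF-like cells, 1 in immune cells and 122 over all cells. With no filter on low counts it called 3 members and 46 genes in melanoma-like, 116 genes in CAF-like and 1 member and 61 genes in immune cells, against 4, 0 and 0 genes as reported. With classes by marker counts, at the usual limit or at 15% mitochondrial UMIs, it called 0 genes in melanoma-like cells, and 1 in immune cells at 15%. It called 1 gene in immune cells when all variable genes entered the clustering and 1 without the immune subcluster carrying melanoma markers, and 3 genes in CAF-like cells without those carrying endothelial markers; the last 2 settings, and all tests of whether the genotype difference differed between classes, were chosen after seeing the data. When the genotype difference was set against that of melanoma-like cells, DESeq2 called 0 members and 0 genes for immune cells, and 1 member and 3 genes for CAF-like cells.

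Leaving out each tumour in turn, the genes called between hosts ran from 0 to 20 in melanoma-like, 0 to 3 in CAF-like, 0 to 1 in immune and 0 to 2 in all cells. In the same tests of the genotype difference against that of melanoma-like cells, the members ran from 0 to 6 and the genes from 2 to 43 for immune cells, and from 3 to 17 and from 22 to 98 for CAF-like cells. With the replicate number as a block, 0 members and 0 genes passed between hosts in every class. The numbers did not pair the tumours (correlations of same-numbered deviations were -0.05 to -0.36 in melanoma-like cells), so they share only a number. The mean share of melanoma-like cells with many member UMIs was 29.3% and 20.4% (Atf4wt/wt and Atf4D/D) at 3 UMIs, 6.41% and 2.87% at 10, and 31.9% and 24.2% without thinning. Depth limits the CAF-like and immune comparisons, where 14 and 12 of 39 members could be tested.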
